A study of Mus musculus with 12 samples.

Results

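Transcripts of 9 genes of the type 1 and type 3 programmes of innate lymphoid cells (ILCs) were followed in group 2 ILCs (ILC2s) that had been expanded with IL-33. The genes were taken by name: the factors Tbx21, Eomes and Ahr, the receptor chains Il12rb1, Il12rb2, Il23r and Ifngr1, and the cytokines Ifng and Il17a. They are 9 of the 29542 genes to which the deposited transcripts were summed, and each one's abundance was read in all 12 libraries. The study asked how ILC2s that developed without Rag1, which encodes a subunit of the recombinase of antigen receptor genes, differ in RNA from ILC2s that developed with it. CD45.1 congenic recipients were given 950 cGy and then marrow of 2 donors mixed 1:1, CD45.2 Rag1-/- and CD90.1 WT, so the cells of both genotypes grew up in the same kind of mixed chimera. IL-33 was given to all of the mice daily for 7 days, 30 ng into each cheek and 240 ng into the peritoneum, before ILC2s were sorted from skin-draining lymph nodes. The 4 groups, each of 3 libraries and all labelled C57BL6, were knockout-labelled cells (CD90.2) at 20 weeks after transplant, WT cells (CD90.1) at 20 weeks, knockout-labelled cells at 8 weeks and WT cells at 8 weeks. The design text of the series and the sample labels disagree on the later time point, and the labels' 20 weeks are used. No group without IL-33 was analysed, so a level here is the level in IL-33-expanded cells.

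ILCs are grouped by the factors and cytokines they use: type 1 cells use T-bet, encoded by Tbx21, and release interferon gamma, type 2 cells use GATA3 and release IL-5 and IL-13, and type 3 cells release IL-17 and IL-22. The type is not fixed for life. In mouse and human ILC2s, IL-12 acting through its receptor can induce T-bet and interferon gamma, while IL-23 together with other signals has been linked to an IL-17-producing state, and the aryl hydrocarbon receptor, encoded by Ahr, sustains type 3 cells of the gut.

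The promoters of 2 pairs of genes are printed because the genes of each pair stood far apart in abundance: the cytokine genes Il17a and Il17f, and the cytokine gene Ifng beside Ifngr1, the gene of its receptor's ligand-binding chain. Each runs from 250 bases before to 50 bases after the RefSeq start of the gene on GRCm38.p6, and is written 5′ to 3′ on the strand of the gene. Capitals mark AGGTCA, core letters that many nuclear receptors bind, on either strand (written TGACCT where it lies on the opposite one), and TATAAA on the strand of the gene. Il17a lies at chr1:20730655-20730954 (plus strand), Il17f at chr1:20784221-20784520 (minus strand), Ifng at chr10:118440796-118441095 (plus strand) and Ifngr1 at chr10:19591699-19591998 (plus strand).
Il17a: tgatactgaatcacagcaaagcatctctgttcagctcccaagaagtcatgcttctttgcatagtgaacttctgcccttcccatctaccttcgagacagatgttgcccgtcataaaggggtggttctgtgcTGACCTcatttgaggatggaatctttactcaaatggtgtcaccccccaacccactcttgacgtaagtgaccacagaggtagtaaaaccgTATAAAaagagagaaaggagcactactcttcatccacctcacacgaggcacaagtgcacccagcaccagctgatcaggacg
Il17f: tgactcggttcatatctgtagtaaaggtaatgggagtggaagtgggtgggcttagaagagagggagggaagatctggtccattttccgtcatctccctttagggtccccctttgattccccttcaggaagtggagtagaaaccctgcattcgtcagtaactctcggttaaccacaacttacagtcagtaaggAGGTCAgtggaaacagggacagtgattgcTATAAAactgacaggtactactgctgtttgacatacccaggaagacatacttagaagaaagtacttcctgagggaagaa
Ifng: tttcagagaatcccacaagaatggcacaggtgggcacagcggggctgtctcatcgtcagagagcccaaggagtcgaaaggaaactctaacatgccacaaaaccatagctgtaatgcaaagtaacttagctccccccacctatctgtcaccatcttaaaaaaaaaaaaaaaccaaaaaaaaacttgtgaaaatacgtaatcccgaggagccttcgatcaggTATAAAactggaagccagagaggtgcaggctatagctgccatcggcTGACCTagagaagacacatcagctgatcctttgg
Ifngr1: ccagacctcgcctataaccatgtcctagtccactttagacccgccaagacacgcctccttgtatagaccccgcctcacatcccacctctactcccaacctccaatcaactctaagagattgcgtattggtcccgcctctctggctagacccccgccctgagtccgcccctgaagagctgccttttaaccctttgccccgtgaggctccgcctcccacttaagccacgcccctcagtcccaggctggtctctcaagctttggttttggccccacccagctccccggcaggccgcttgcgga

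Il17a, Il17f and Ifng each held 1 AGGTCA and 1 TATAAA, and the Ifngr1 window held neither. Among the 7 of 9 genes with a promoter in the RefSeq table, Il23r also held AGGTCA, in 2 places, while Tbx21, Eomes and Il12rb2 did not. Of all 32851 promoters of the same length, 16.3% held AGGTCA on either strand, 8.32% held TATAAA on the strand of the gene and 3.98% held GGTGTGA, the core letters that T-box factors bind. GGTGTGA was in none of the 7 windows on either strand. The Ifngr1 promoter held 14 CpG dinucleotides, that of Tbx21 21, that of Il12rb2 12 and that of Eomes 10, against 7 for Ifng, 6 for Il17a, 4 for Il17f and 2 for Il23r. The median over all promoters was 7. So AGGTCA stood in the window of Il17a, which was close to 0, and in that of Il17f, which was abundant. Whether these letters bear on the level of a gene was not tested.

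The libraries held 11433625 to 32529806 estimated reads. ILC2 markers summed to 1999 to 3415 TPM, the length-scaled share of transcripts, and none of the 11 was under 1 TPM in all libraries of a group. The 10 markers of natural killer cells and ILC1s summed to 1102 to 4375 TPM, most of it from the chemokine gene Ccl5. Prf1, Gzma and Ccl5 were not under 1 TPM in every library, but the other 7 were (Ncr1, Klrb1c, Klra4, Klra8, Klre1, Eomes and Itga1). These 7 summed to 0.527 to 0.998 TPM in knockout-labelled libraries at 20 weeks, 0.212 to 1.38 TPM in WT at 20 weeks, 0.0792 to 1.87 TPM in knockout-labelled at 8 weeks and 0.543 to 1.61 TPM in WT at 8 weeks. Rag1 had reads only in libraries labelled as its knockout, with at most 18.4 estimated reads in a library. It was 0.0847, 0.115 and 0.0936 TPM in knockout-labelled libraries at 20 weeks and 0, 0.125 and 0.176 TPM in those at 8 weeks. It was 0 in all 6 WT libraries. The estimates do not show which part of the gene those reads came from. Whether they bear on the labels was not tested, and the libraries are named by their label throughout. Of the libraries at 8 weeks, WT replicate 2 and knockout-labelled replicate 3 stood apart in a principal component analysis. The top 10 genes by reads held 24.5% of the knockout-labelled one, against 8.85% to 15.03% of any other.

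The 9 genes ranged from abundant to nearly undetected. Ifngr1 averaged 163 TPM over the 12 libraries, above 93.2% of the 14431 genes that passed a filter on low counts. Il12rb1 averaged 14.3 TPM and Ahr 4.34 TPM, and both had reads in every library. The other 6 averaged under 0.5 TPM: Il12rb2 0.411, Il17a 0.386, Tbx21 0.296, Ifng 0.127, Il23r 0.0713 and Eomes 0.0263 TPM. Taking under 1 TPM in every library as near zero, Eomes, Ifng and Il23r stayed near zero, and the same 3 did so at under 1 CPM, the share of a library's reads without scaling for length. Eomes and Il23r also stayed under 0.5 TPM in every library. Just outside the limit lay Tbx21, with a highest library of 1.02 TPM, Il12rb2 with 1.22 TPM and Il17a with 1.47 TPM. In these bulk samples, fewer cells that transcribe a gene and less RNA per cell cannot be told apart, so a level of 0.5 TPM may be spread over all cells or sit in a few.

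**Figure D1:**
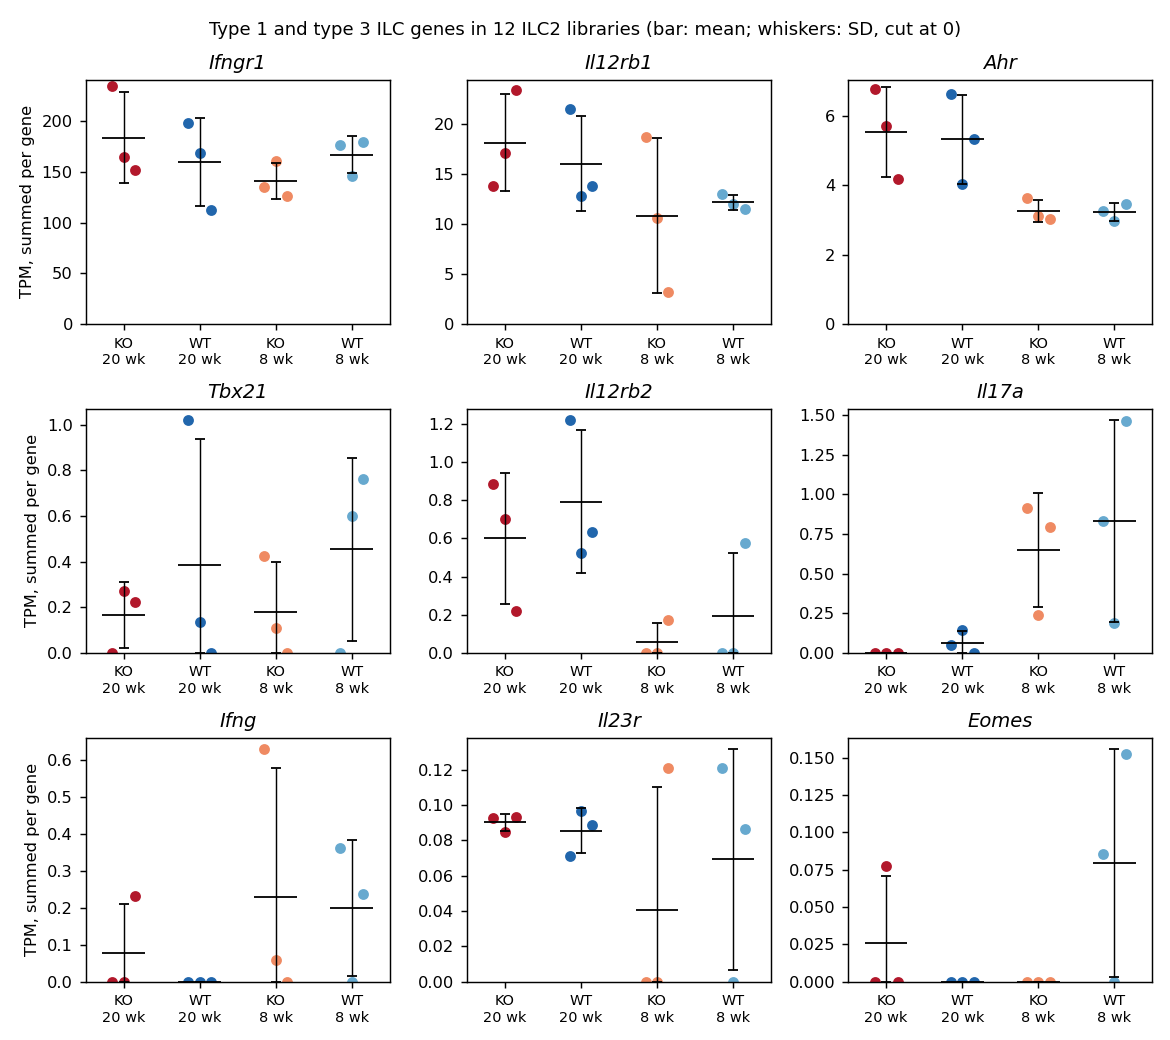
TPM, summed per gene, of the 9 genes in each library (points), by group, with the group mean (bar) and SD (whiskers, cut off at 0, n = 3); KO stands for knockout-labelled, and each panel has its own axis. Ifngr1 lies between 112 and 235 TPM in all libraries, Ahr is higher in TPM in the 6 libraries at 20 weeks than in the 6 at 8 weeks (but not in CPM), and Il17a is at 0 in all 3 knockout-labelled libraries at 20 weeks.

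Ifngr1 (chr10:19591949-19610229, plus strand, GRCm38), the ligand-binding chain of the interferon gamma receptor, was the most abundant of the 9 genes in each of the 12 libraries. It was 235, 165 and 152 TPM in knockout-labelled libraries at 20 weeks, against 198, 169 and 112 TPM in WT libraries at 20 weeks. The values at 8 weeks were 135, 161 and 126 TPM in knockout-labelled libraries, against 176, 146 and 179 TPM in WT libraries. The groups overlapped in TPM at both times. On the CPM scale of the test those at 8 weeks did not overlap: knockout-labelled libraries held 200, 243 and 227 CPM, against 268, 270 and 294 CPM in WT libraries. Of all genes tested, 2.72% were likewise lower in all knockout-labelled libraries at 8 weeks. The fitted log2 fold change was -0.31 (SE 0.21, 95% confidence interval -0.79 to 0.16, edgeR's quasi-likelihood test with Benjamini-Hochberg adjustment, adjusted p = 1). At 20 weeks it was 0.08 (SE 0.21, interval -0.39 to 0.56), and the difference between the genotype effects at the 2 times was 0.39 (SE 0.29, adjusted p = 1).

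Nearly all Ifngr1 reads came from its protein-coding transcript. Ifngr1-201, of 2112 bases, held 88.1% ± 8.16 of the gene's TPM (SD, n = 12 libraries) and 95.9% ± 3.14 of its estimated reads. Ifngr1-202, a transcript of 676 bases with a retained intron, averaged 10.3% of TPM, with a range of 0.221% to 26.7%. Its highest and lowest shares were both in knockout-labelled libraries at 8 weeks, 26.7% in replicate 1 and 0.221% in replicate 3, so this group alone spanned the range. Ifngr2, the signalling chain of the same receptor, was present in every library at 9.83 to 27.2 TPM, and Ifngr1 exceeded it in TPM by 5.24-fold to 14.1-fold.

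**Figure D2:**
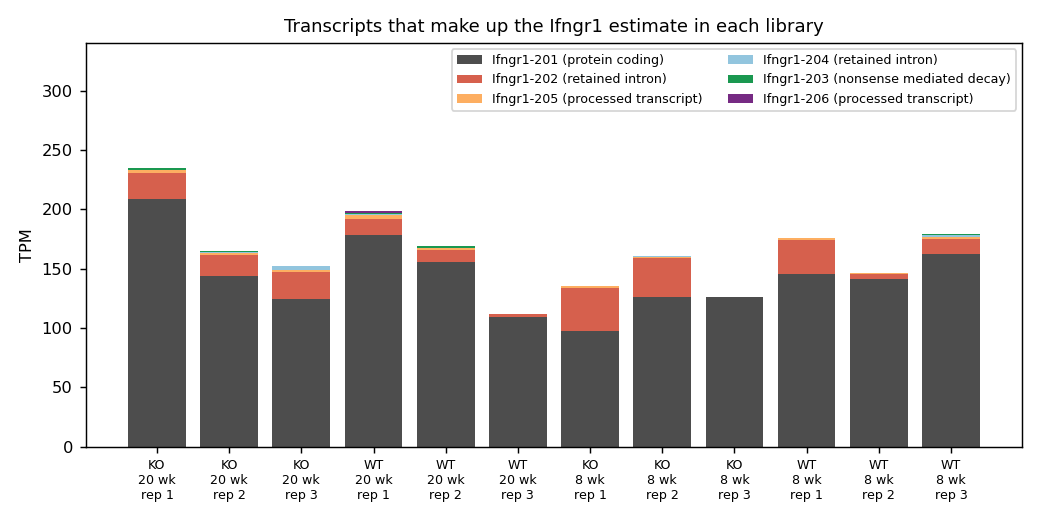
TPM of the 6 Ifngr1 transcripts in each library, stacked; the bar height is the summed TPM of the gene. The protein-coding transcript Ifngr1-201 (grey) makes up 72.1% to 99.5% of each bar, and the retained-intron transcript Ifngr1-202 (red) 0.221% to 26.7%.

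T cells and natural killer cells use the IL-12 receptor to start the type 1 programme. Its shared chain was present, while its IL-12-specific chain was low at 20 weeks and mostly undetected at 8 weeks. Il12rb1 (chr8:70808449-70821424, plus strand), whose product also pairs with the IL-23 receptor, was 13.8, 17.1 and 23.4 TPM in knockout-labelled libraries at 20 weeks, against 21.4, 12.8 and 13.8 TPM in WT libraries at 20 weeks. Its values at 8 weeks were 18.7, 10.5 and 3.21 TPM in knockout-labelled libraries, against 13.0, 12.0 and 11.5 TPM in WT libraries. The groups overlapped at both times, and the knockout-labelled libraries at 8 weeks held both the highest and the lowest value of that time; the lowest was replicate 3, which stood apart. The genotype difference was 0.13 on the log2 scale (SE 0.46) at 20 weeks and -0.14 (SE 0.47) at 8 weeks, with intervals from -0.94 to 1.20 and from -1.22 to 0.93.

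Il12rb2 (chr6:67291318-67376188, minus strand), the IL-12-specific signalling chain, was 0.883, 0.701 and 0.220 TPM in knockout-labelled libraries at 20 weeks and 1.22, 0.524 and 0.636 TPM in WT libraries at 20 weeks. At 8 weeks it was 0, 0 and 0.170 TPM in knockout-labelled libraries and 0, 0 and 0.574 TPM in WT libraries. It was thus detected in 6 of 6 libraries at 20 weeks and in 2 of 6 at 8 weeks. Summed over 3 libraries, knockout-labelled cells had 109 reads at 20 weeks and 5 at 8 weeks, and WT cells had 114 at 20 weeks and 20 at 8 weeks. Il12rb2 passed the filter on low counts mostly through its libraries at 20 weeks, at 0.425 to 2.29 CPM, against at most 1.23 CPM at 8 weeks. Its entry to the tests of time thus depended on the difference tested. The difference between times did not pass the threshold: averaged over genotypes it was 2.59 on the log2 scale (SE 1.06, adjusted p = 0.21). Within knockout-labelled cells, whose libraries at 20 weeks were all above those at 8 weeks (as were 8.32% of all genes tested in CPM), it was 3.33 (SE 1.60, adjusted p = 0.618), and within WT cells 1.86 (SE 1.39, adjusted p = 0.612). The averaged difference passed without WT replicate 3 of 8 weeks, the library with most of the reads at that time (5.74, adjusted p = 0.0349, where the adjusted p over all alternatives ran from 0.0349 to 0.357). Il12rb2 overlaps Serbp1 on the opposite strand, and since the strand of the libraries is not stated, reads of the overlap cannot be assigned to one of them. In the 8 libraries with reads of both chains, Il12rb1 exceeded Il12rb2 by 15.6-fold to 106-fold in TPM.

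Tbx21 (chr11:97098071-97115331, minus strand), which encodes T-bet, was detected in 8 of 12 libraries, with at most 57.2 estimated reads. It was 0, 0.271 and 0.223 TPM in knockout-labelled libraries at 20 weeks, against 1.02, 0.137 and 0 TPM in WT libraries at 20 weeks. At 8 weeks it was 0.426, 0.109 and 0 TPM in knockout-labelled libraries, against 0, 0.5998 and 0.764 TPM in WT libraries. Each group held 1 library at 0, and all 4 groups overlapped. The genotype difference was -1.26 on the log2 scale (SE 1.63, interval -5.02 to 2.49) at 20 weeks and -1.22 (SE 1.64, interval -5.00 to 2.57) at 8 weeks. These intervals hold differences of several-fold in either direction. At 20 weeks the summed reads, 26 in knockout-labelled and 63 in WT cells, gave a ratio of 0.316 (95% exact binomial interval 0.192 to 0.506, counting error only), and 57.2 of the WT reads came from 1 library.

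Eomes (chr9:118478212-118486132, plus strand), the T-box factor of natural killer cells, was listed at 0 in 9 of 12 libraries. It was 0.0775 TPM in knockout-labelled replicate 2 of 20 weeks, and 0.0857 and 0.152 TPM in WT replicates 1 and 3 of 8 weeks, with at most 5.75 reads. Ifng (chr10:118441046-118445892, plus strand), the type 1 cytokine, was listed at 0 in 7 libraries, among them all 3 WT libraries at 20 weeks. It was 0.232 TPM in knockout-labelled replicate 3 of 20 weeks, 0.629 and 0.0598 TPM in knockout-labelled replicates 1 and 2 of 8 weeks, and 0.361 and 0.238 TPM in WT replicates 1 and 3 of 8 weeks. A count of 0 allows up to 3 reads, which came to 0.0864 to 0.296 CPM per library. Such floors, like the intervals on reads given here, hold for counting error alone, because copies made by PCR are not separate molecules. Eomes and Ifng did not pass the filter on low counts, nor did Il23r, and none of the 3 was tested between groups.

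Among the type 3 genes, Ahr (chr12:35497974-35535038, minus strand), the ligand-activated aryl hydrocarbon receptor, was present in all libraries. It was 6.77, 5.70 and 4.17 TPM in knockout-labelled libraries at 20 weeks, against 6.63, 4.05 and 5.33 TPM in WT libraries at 20 weeks. The libraries at 8 weeks had less, 3.63, 3.11 and 3.04 TPM in knockout-labelled libraries, against 3.25, 2.98 and 3.47 TPM in WT libraries. All 6 libraries at 20 weeks were above all 6 at 8 weeks in TPM, as were those of 4.41% of all genes tested, while the genotypes overlapped at each time. On the CPM scale this order did not hold, with a lowest value of 15.2 CPM at 20 weeks and a highest of 16.1 CPM at 8 weeks. There the times did not overlap in WT cells, where 10.3% of all genes tested were higher in all libraries at 20 weeks, and overlapped in knockout-labelled cells. The difference between times was 0.44 on the log2 scale (SE 0.26, adjusted p = 0.711) in knockout-labelled cells and 0.71 (SE 0.26, unadjusted p = 0.0185, adjusted p = 0.278) in WT cells. Averaged over genotypes it was 0.58 (SE 0.19, interval 0.15 to 1.00, adjusted p = 0.115), which did not pass the threshold. The protein-coding transcript Ahr-202 held 86.5% ± 11.5 of the gene's TPM (SD, n = 12 libraries), and its smallest share, 61.4%, was in WT replicate 2 of 8 weeks.

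Il23r (chr6:67422932-67491855, minus strand), the IL-23-specific receptor chain and the neighbour of Il12rb2 at a distance of 46.7 kb, stayed near zero. It was 0.0925, 0.0846 and 0.0931 TPM in knockout-labelled libraries at 20 weeks, and 0.0713, 0.0965 and 0.0886 TPM in WT libraries at 20 weeks. At 8 weeks it was 0, 0 and 0.121 TPM in knockout-labelled libraries and 0.121, 0 and 0.0866 TPM in WT libraries. No library had more than 5.66 estimated reads of Il23r, so its partner Il12rb1 was present where Il23r was barely detected.

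Il17a (chr1:20730905-20734496, plus strand), the type 3 cytokine, was low throughout and lower at 20 weeks. It was 0 in all 3 knockout-labelled libraries at 20 weeks, and 0.0514, 0.143 and 0 TPM in WT libraries at 20 weeks. At 8 weeks it was 0.912, 0.240 and 0.797 TPM in knockout-labelled libraries and 0.835, 0.190 and 1.47 TPM in WT libraries. All 6 libraries at 20 weeks were below all 6 at 8 weeks; of all genes tested, 2.47% were likewise lower in CPM. In reads, knockout-labelled cells had 0 at 20 weeks and 41 at 8 weeks, and WT cells had 4 at 20 weeks and 43 at 8 weeks, each summed over 3 libraries. Against a floor of 3 reads per library (0.101 CPM on average), Il17a was at least 6.59-fold lower in knockout-labelled cells at 20 weeks than at 8 weeks, where it averaged 0.663 CPM. In WT cells the ratio of 20 weeks to 8 weeks was 0.0649, with a 95% exact binomial interval of 0.0169 to 0.179 for counting error only.

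The difference in Il17a between times averaged over genotypes passed the threshold (-5.35 on the log2 scale, SE 0.91, edgeR's quasi-likelihood test, adjusted p = 0.0187), a comparison that was added after the data were seen. Il17a passed the filter on low counts only through libraries at 8 weeks, where it reached 1.41 CPM, against at most 0.116 CPM at 20 weeks. Its entry to this test thus depended on the difference tested, and the call is no independent support for that difference. The fitted value rests on the prior count where a group is at 0 and is no bound. It did not pass within knockout-labelled cells (unadjusted p = 0.000626, adjusted p = 0.215; DESeq2 adjusted p = 0.0093, range over the alternatives 0.0093 to 0.723) or within WT cells (-3.77, SE 1.11, unadjusted p = 0.00665, adjusted p = 0.194). The averaged call was lost without knockout-labelled replicate 1, 2 or 3 of 20 weeks (adjusted p = 0.0541, 0.0579 and 0.0549), without WT replicate 1 of 20 weeks (0.0595) and without WT replicate 1 of 8 weeks (0.0527). It was also lost with the thread number of the file headers as a covariate (0.0563); all 3 knockout-labelled libraries at 20 weeks ran with 24 threads. Over the alternatives the adjusted p ran from 6.23e-05 to 0.0595, and without both libraries that stood apart it was 0.0152. Marker sums of other cells are given beside the Il17a result. The 10 natural killer cell and ILC1 markers, of which 1 or 2 of Klra4, Klra8, Klre1 and Eomes were at 0 in all libraries of each group, summed to 1285 to 1417 TPM in knockout-labelled and 1102 to 1293 TPM in WT libraries at 20 weeks, and to 1198 to 2793 TPM in knockout-labelled and 1806 to 4375 TPM in WT libraries at 8 weeks. The 7 type 3 markers, with Il22 at 0 in 3 groups, summed to 99.0 to 205 TPM in knockout-labelled and 91.3 to 159 TPM in WT libraries at 20 weeks, and to 106 to 239 TPM in knockout-labelled and 123 to 662 TPM in WT libraries at 8 weeks. Il17f is one of these 7 and made up most of their sum in every library, such as 649 of 662 TPM in WT replicate 2 of 8 weeks. The sum thus mostly restates Il17f. Most of the sum of the natural killer cell and ILC1 markers was Ccl5, a chemokine gene, at 1275 TPM on average in knockout-labelled and 1130 TPM in WT libraries at 20 weeks, and 1948 TPM in knockout-labelled and 2830 TPM in WT libraries at 8 weeks; the 7 low ones summed to under 2 TPM in every library. Of the 10 T cell markers, Cd5 was at 0 in WT libraries at 20 weeks. They summed to 117 to 135 TPM in knockout-labelled and 130 to 143 TPM in WT libraries at 20 weeks. At 8 weeks they summed to 96.1 to 144 TPM in knockout-labelled and 118 to 179 TPM in WT libraries. Most of this came from Cd3d, Cd3g, Lef1 and Bcl11b. At 20 weeks Cd3e, Cd4, Cd8a, Cd8b1, Cd5 and Cd6 summed to 1.52 to 2.08 TPM (knockout-labelled) and 2.145 to 5.15 TPM (WT). At 8 weeks these summed to 0.992 to 1.62 TPM (knockout-labelled) and 1.01 to 5.95 TPM (WT). The 7 B cell markers, with Pax5 at 0 in both groups of 20 weeks, summed to 183 to 250 TPM in knockout-labelled and 333 to 513 TPM in WT libraries at 20 weeks, and to 180 to 1021 TPM in knockout-labelled and 184 to 361 TPM in WT libraries at 8 weeks. In knockout-labelled cells the ranges of the natural killer, T and B cell sums overlapped between the times, and in WT cells those of the T and B cell sums did, while the natural killer cell and ILC1 sums were higher in all 3 libraries at 8 weeks. The part of these cells in the Il17a result was not tested.

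Between genotypes, Il17a differed by -3.45 on the log2 scale at 20 weeks (SE 1.49, unadjusted p = 0.0431, adjusted p = 1), on 0 reads in knockout-labelled cells and 4 in WT cells, both at or under the floor. At 8 weeks the ratio of knockout-labelled to WT cells was 0.773 (95% exact binomial interval 0.491 to 1.21). The difference between the genotypes' changes over time was -3.16 (SE 1.59, adjusted p = 1).

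Il17f, the paralog 42.7 kb away whose product pairs with that of Il17a, was abundant where Il17a was not. It was 102, 85.8 and 190 TPM in knockout-labelled libraries at 20 weeks, and 84.6, 104 and 145 TPM in WT libraries at 20 weeks. Its level at 8 weeks was 96.7, 226 and 111 TPM in knockout-labelled libraries and 106, 649 and 112 TPM in WT libraries. The value of 649 TPM was that of WT replicate 2, which stood apart, and the other 11 libraries lay between 84.6 and 226 TPM. In the 8 libraries with Il17a reads, Il17f exceeded Il17a by 76.4-fold to 3423-fold in TPM, where the highest ratio rests on 2 Il17a reads in WT replicate 2 of 8 weeks. In the 6 libraries with at least 3 Il17a reads, which leave that library out, the ratio was 76.4-fold to 942-fold. Il17f did not pass the threshold between times (-1.03 on the log2 scale averaged over genotypes, SE 0.46, adjusted p = 0.257). Both promoters printed above hold AGGTCA and TATAAA.

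Of the 9 genes, 6 passed the filter on low counts (Tbx21, Ahr, Il12rb1, Il12rb2, Ifngr1 and Il17a) and entered the tests, and a gene was called at an adjusted p under 0.05. None of the 6 was called between genotypes at 20 weeks, at 8 weeks or averaged over both, where 0.0554%, 0.201% and 0.222% of all genes tested were called. None was called for the difference between the genotype effects at the 2 times (0.097% of all genes called). With edgeR's quasi-likelihood test none was called between 20 and 8 weeks in knockout-labelled cells (0.0624% called) or in WT cells (0.513% called). At an unadjusted p under 0.05 there was 1 of 6 between genotypes at 20 weeks (2.08% of all genes tested) and 1 averaged over both times (3.71%), Il17a in both. There were 0 at 8 weeks (3.62%) and 0 for the difference of effects (2.18%). Between times there was 1 in knockout-labelled cells (8.33%), Il17a, and there were 2 in WT cells (13.3%), Ahr and Il17a. DESeq2 called 1 of the 6, Il17a between times in knockout-labelled cells, where it called 150 of all 14431 genes. In these 6 comparisons limma-voom called 0 of the 6, and 7 to 68 of all genes in each. Averaged over genotypes, the comparison added after the data were seen, edgeR, DESeq2 and limma-voom each called 1 of 6, Il17a. All of them used the same filtered counts, which Il17a entered only through libraries at 8 weeks. Their calls are thus no independent support for that difference. Of all 14431 genes, edgeR called 419 (2.9%) there, DESeq2 1227 and limma-voom 510. Ahr and Il12rb2 joined it at an unadjusted p under 0.05 (18.6% of all genes). The comparisons share libraries and are not independent of each other.

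**Figure D3:**
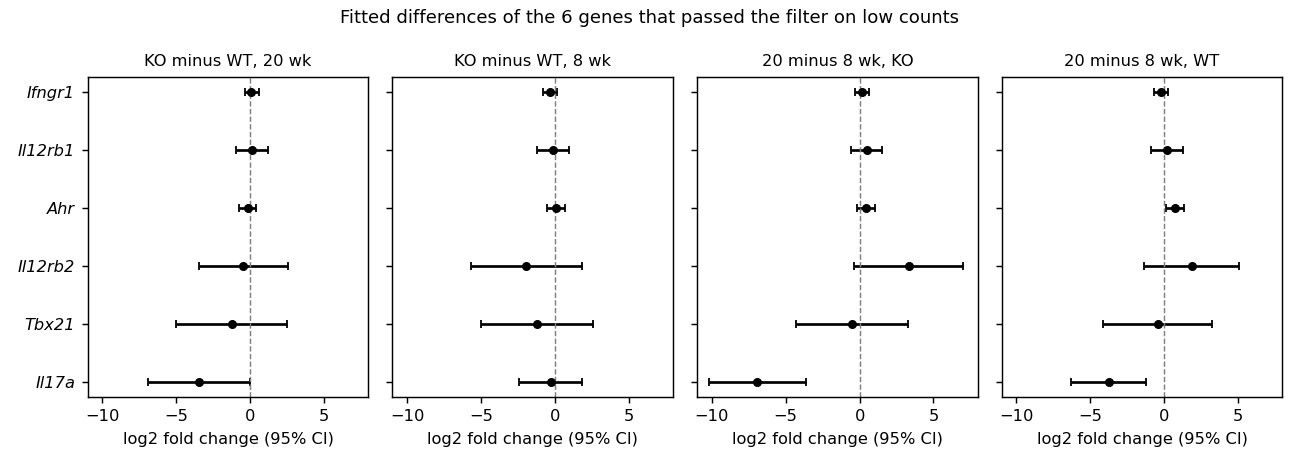
Fitted log2 fold changes (points) with 95% confidence intervals (whiskers) of the 6 genes that passed the filter, for knockout-labelled over WT at each time and for 20 over 8 weeks in each genotype. Ifngr1 and Ahr are the most precisely measured, the intervals of Il12rb2 and Tbx21 span several log2 units, and those of Il17a lie below 0 for both comparisons of the times. Il17a entered the tests only through libraries at 8 weeks, and neither of these comparisons passed the threshold. In knockout-labelled cells, at 0 at 20 weeks, its fitted value rests on the prior count and is no bound.

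The other genes of the type 1 pathway were taken as a list of 20, of which 20 were tested. Downstream of the receptor, Stat4, which relays the IL-12 signal, was 37.0 to 83.6 TPM over all libraries. Cxcr6, a chemokine receptor, was the most abundant of the list at 714 to 1375 TPM. No gene of the list was called between genotypes with edgeR (median log2 fold change -0.03 at 20 weeks and -0.05 at 8 weeks, against -0.01 and 0.02 over all genes tested). At an unadjusted p under 0.05 there was 1 gene at each time, the IL-18 receptor chain Il18r1 (2.08% of all genes tested at 20 weeks and 3.62% at 8 weeks). DESeq2 called 0 of the list at each time, against 32 and 75 of all 14431 genes. Averaged over both times 2 passed unadjusted (3.71% of all genes), Il18r1 and Irf8. Of these DESeq2 called Il18r1, where it called 76 of all genes, and edgeR and limma-voom called 0 of the list. Il18r1 was 17.9, 16.7 and 20.3 TPM in knockout-labelled libraries at 20 weeks, against 27.1, 26.1 and 30.8 TPM in WT libraries at 20 weeks. At 8 weeks it was 9.38, 12.0 and 11.4 TPM in knockout-labelled libraries, against 19.0, 26.6 and 16.8 TPM in WT libraries. The genotypes did not overlap at either time, as was so for 6.08% of all genes tested, lower in knockout-labelled libraries in CPM, at 20 weeks and 2.72% at 8 weeks. Its averaged difference had an adjusted p of 0.134 with edgeR (range over the alternatives 0.00317 to 0.471).

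Between the times, 1 gene of the type 1 list was called lower in WT cells at 20 weeks, where 0.312% of all genes were: Bhlhe40, a transcription factor that T cells use for cytokine output (-0.88 on the log2 scale, SE 0.16, adjusted p = 0.0383). It was 213, 202 and 182 TPM in WT libraries at 20 weeks, against 343, 332 and 343 TPM in WT libraries at 8 weeks, and 245, 181 and 180 TPM in knockout-labelled libraries at 20 weeks, against 282, 298 and 283 TPM in those at 8 weeks. All libraries at 20 weeks were below all at 8 weeks, as were those of 2.47% of all genes tested in CPM. The call in WT cells was lost with the replicate number as a block (adjusted p = 0.0663), with the thread covariate (0.0663), without a filter (0.0618), with only the libraries of the comparison (0.13) and with only those of 8 threads (0.593). It was also lost without any of 7 of the 12 libraries (knockout-labelled replicates 2 and 3 and WT replicates 1, 2 and 3 of 20 weeks, knockout-labelled replicate 2 and WT replicate 1 of 8 weeks), and the adjusted p ran from 1.57e-07 to 0.593 over its 22 alternatives. Averaged over genotypes, the added comparison, 2 genes of the list were called lower (1.93% of all genes) and 0 higher: Bhlhe40 (-0.82, SE 0.12, adjusted p = 0.0054) and Gzmb (-2.09, SE 0.49, adjusted p = 0.0441), which encodes the cytotoxic protease granzyme B. Gzmb was 3.18 to 19.7 TPM in the 6 libraries at 20 weeks, against 20.3 to 75.01 TPM in the 6 at 8 weeks, and its call was lost without 10 of the 12 libraries in turn, that is without any but WT replicate 1 of 20 weeks and WT replicate 2 of 8 weeks. DESeq2 called 3 genes of the list and limma-voom 2, where they called 1227 and 510 of all 14431 genes. The median of the list was 0.13, against 0.02 over all genes tested.

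The list of type 3 and aryl hydrocarbon receptor genes held 24, of which 20 were tested. Rora, a factor that ILC2s themselves need, was 47.8 to 91.0 TPM and Batf, a factor of type 3 T cells, 114 to 230 TPM. The factors Tox, needed for ILC development, and Maf were 70.4 to 225 TPM and 53.4 to 112 TPM. Il22 was listed at 0 in 11 libraries and at 0.301 TPM in knockout-labelled replicate 2 of 8 weeks, and Il1r1, the IL-1 receptor, reached at most 0.260 TPM. No gene of the list was called between genotypes by edgeR, DESeq2 or limma-voom. At an unadjusted p under 0.05 there were 0 at each time and 1 averaged over both (3.71% of all genes tested), the chemokine receptor Ccr6. Between times edgeR called 0 in each genotype. At an unadjusted p under 0.05 there were 4 of 20 in knockout-labelled cells (8.33% of all genes) and 5 in WT cells (13.3%). DESeq2 called 1 in knockout-labelled cells, Tiparp, where it called 150 of all 14431 genes.

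The partner and targets of Ahr differed widely in level. Arnt, its dimerisation partner, was 7.59 to 18.1 TPM, and Ahrr, its repressor and target, 0.193 to 0.859 TPM. Cyp1a1, the classical target enzyme, reached at most 0.0779 TPM. Tiparp, another target gene and a repressor of the receptor, was 5.30, 3.90 and 3.15 TPM in knockout-labelled libraries at 20 weeks, 4.20, 4.16 and 4.76 TPM in WT libraries at 20 weeks, 6.08, 7.79 and 19.4 TPM in knockout-labelled libraries at 8 weeks and 6.94, 8.02 and 6.79 TPM in WT libraries at 8 weeks. All libraries at 20 weeks were below all at 8 weeks, as were those of 2.47% of all genes tested in CPM. In the added comparison, where 1.93% of all genes were called lower, Tiparp was the 1 gene of the list called, lower at 20 weeks (-1.33 on the log2 scale averaged over genotypes, SE 0.27, adjusted p = 0.0256; range over the alternatives 0.000118 to 0.0901). The call was lost without any of the 6 libraries at 20 weeks or WT replicate 1 of 8 weeks, each left out in turn. Without both libraries that stood apart it was -0.92 (adjusted p = 0.0104).

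Genes that interferon gamma induces were read beside Ifng, which was near zero, and they ranged from abundant to barely detected. Of 21 listed, 19 were tested. Psmb8 and Psmb9, subunits of the immunoproteasome, were 371 to 948 TPM and 197 to 326 TPM, Tap1, a peptide transporter, was 75.7 to 178 TPM, and Irf1, a transcription factor, was 61.5 to 177 TPM. At the low end, the chemokine gene Cxcl9 averaged 0.147 TPM over the 12 libraries, Socs1, an inhibitor of cytokine signalling, 0.661 TPM, and the GTPase genes Gbp5 and Iigp1 averaged 3.26 TPM and 5.38 TPM. Other interferons induce genes of this list too. None of the 19 was called by edgeR, DESeq2 or limma-voom in any of the 7 comparisons, where edgeR called 0.0554% to 2.9% of all genes. With edgeR there were 0 to 2 at an unadjusted p under 0.05 in each (2.08% to 18.6% of all genes). The medians of the list ran from -0.08 to 0.07 on the log2 scale.

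**Figure D4:**
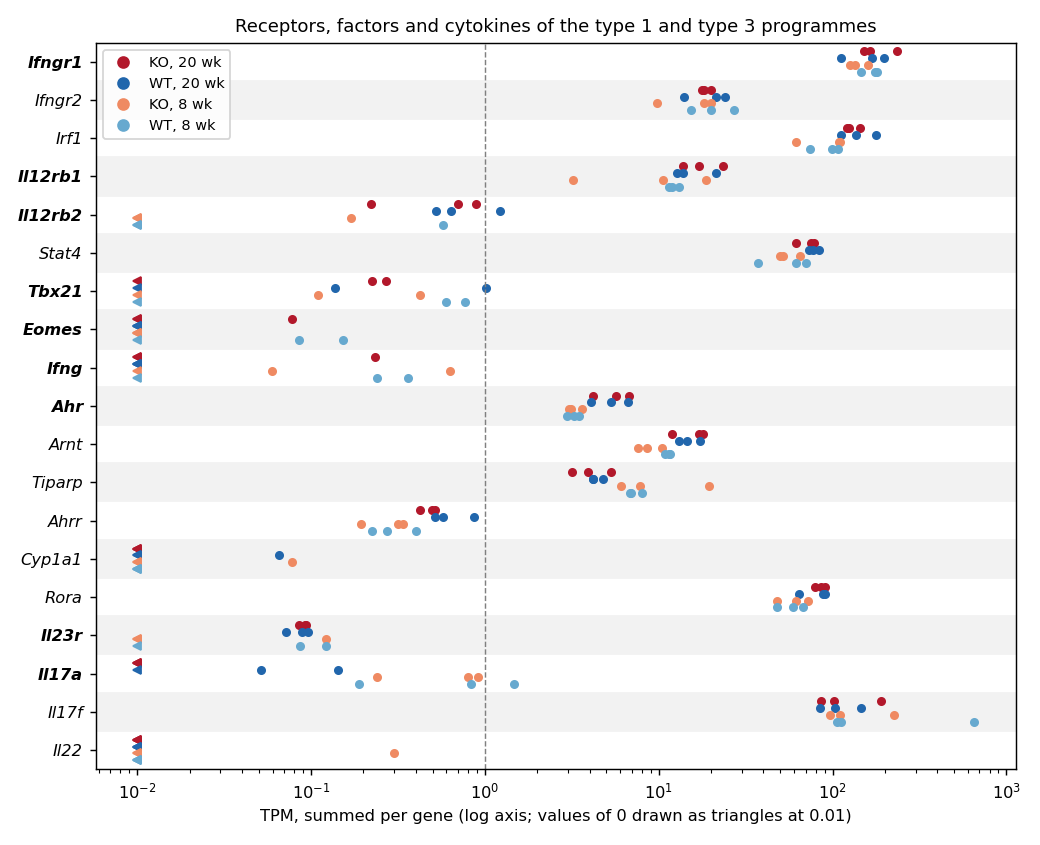
TPM on a log axis of the 9 genes (bold) and of genes of their pathways in each library, coloured by group; KO stands for knockout-labelled, triangles at the left edge are values of 0, and the dashed line is 1 TPM. Receptors and signalling genes such as Ifngr1 and Stat4 lie far right of the line in all 12 libraries, whereas Eomes, Ifng, Il23r and Il22 lie left of it, and Il17f lies far right of Il17a.

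For each of the 6 tested genes the 2 genes most like it over the 12 libraries were read from Pearson correlations of log2 CPM, as a description. The libraries share groups, time points and depth, and each partner was picked as the highest over all genes tested. The values thus carry no test. Tbx21, Il12rb2 and Il17a were each at 0 in 4 libraries, where log2 CPM rests on the prior count. Il12rb1 was most like Fkbp8 (r = 0.974), Il12rb2 like Gprc5c (0.955), Il17a like Pdia6 (0.948), Ahr like 2210418O10Rik (0.942), Ifngr1 like Gpkow (0.886) and Tbx21 like Gmppb (0.882). The next were Rabac1 for Il12rb1 (0.972), Slc23a1 for Il12rb2 (0.949), Cdca5 for Il17a (0.932), Slc25a17 for Ahr (0.929), Dcdc2b for Tbx21 (0.878) and Zfp472 for Ifngr1 (0.797). Without the 2 libraries that stood apart the first of each pair had 0.895 for Il12rb1, 0.951 for Il12rb2, 0.945 for Il17a, 0.91 for Ahr, 0.91 for Ifngr1 and 0.842 for Tbx21.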

How the data were processed

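RNA of sorted ILC2s was sequenced in 12 libraries, 3 per group. Per the file headers, each deposited file gives the estimated (expected) count and the TPM of each transcript, which the authors estimated with sailfish 0.6.3 (k-mers of 20 bases; transcripts of Ensembl release 76). TPM, as deposited, is scaled to transcript length and to a fixed sum per library. Sailfish is not among the tools of the submitters' processing notes, which name featureCounts 1.4.5 of Subread, STAR 2.0.4b and bcl2fastq. The molecule label is polyA RNA, but the labels' protocol depletes ribosomal RNA and primes at random; the strand is not stated. Counting by k-mers divides reads shared by paralogs by its model.

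In GENCODE M21 (GRCm38), 83739 of the 86127 transcript identifiers (97.2%) were found, giving 29542 genes. The others held 1.00% to 1.53% of the reads of a library. Summed expected counts, as deposited, were rounded, filtered with filterByExpr, scaled by TMM and fitted for 14431 genes in edgeR 4.0.16 (R 4.3.3) on 4 group means with 8 residual degrees of freedom; the quasi-likelihood test was adjusted by Benjamini and Hochberg over all genes tested. TPM values are sums over a gene's transcripts, and CPM are TMM-scaled. The common biological coefficient of variation was 0.377. The procedure was tested on simulated data. Alternatives were DESeq2 1.42.0 size factors and test, limma-voom 3.58.1, no filter, length-scaled TPM, the thread number (8 or 24) as a covariate, a replicate block, each library left out in turn, and smaller sets of libraries. The comparison of times averaged over genotypes was added after the data were seen.

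The 9 genes and the lists were chosen with earlier results of these data known. Named by rule were the 9 genes, Rag1 and Thy1, the 4 most abundant and every called gene of each list, a fixed set of their partners, and the 2 genes most correlated with each tested gene. Gzmb, Irf8, Ccr6, Ccl5, Cxcl9, Socs1, Gbp5 and Iigp1 were named after their values were seen. The levels of some listed genes are not reported here. Gbp6, on the list of interferon gamma targets, was not matched and was not used here. Thy1, whose alleles differ between the donors, was higher in knockout-labelled cells (2.63 on the log2 scale, SE 0.25, adjusted p = 0.000463). Promoters came from RefSeq (GRCm38.p6). The labels do not say whether replicates are separate mice; if they are not, the spread behind each p-value may be technical. The labels give neither batch nor date, and a batch that follows the time points cannot be told apart from time. Libraries of 24 threads were 3 knockout-labelled and 1 WT at 20 weeks and 1 of each at 8 weeks, too few for values of their own.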

Additional observations from a re-analysis of the deposited data

How the results depend on the processing

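With edgeR's planned settings, 0 of the 6 tested genes were called in each of the 6 planned comparisons; DESeq2 called 1 between times in knockout-labelled cells. For the added comparison of times averaged over genotypes the count of 1 became 0 with the thread covariate and 0 to 2 without 1 library. In the type 1 list DESeq2 called 1 averaged over times between genotypes, 1 between times in knockout-labelled cells and 2 in WT cells. The type 1 count of 1 between times in WT cells was 0 without a filter, with the thread covariate, with only the libraries of the comparison and with only those of 8 threads, and 0 to 1 without 1 library. In those settings 71 of 22703, 57 of 14431, 37 of 13416 and 0 of 14257 genes were called, and 29 to 302 without 1 library. Averaged over genotypes, that list's count of 2 was 3 with DESeq2, 1 with the thread covariate and 1 to 2 without 1 library. In the type 3 list DESeq2 called 1 between times in knockout-labelled cells; averaged over genotypes the count of 1 was 2 with DESeq2, 0 with the thread covariate, 2 without both libraries that stood apart and 0 to 3 without 1 library. The interferon gamma targets had 1 call between times in knockout-labelled cells and 3 averaged over genotypes without both of those libraries, and 0 to 2 without 1 library. Without both, 59 and 983 of all 14994 genes were called in these comparisons. The counts over all genes moved with the settings too. DESeq2 called 150 of 14431 genes between times in knockout-labelled cells, 465 in WT cells and 76 between genotypes averaged over times. For times averaged over genotypes, DESeq2 called 1227 of 14431 genes and the fit with the thread covariate 75. Without 1 library, 77 to 927 genes were called there. The cause of these changes was not tested. No result changed sign past the threshold. The genes near zero numbered 3 under 1 TPM, 2 under 0.5 TPM and 3 under 1 CPM.

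Replicate numbers in the labels did not meet the rule for pairing: the deviations of same-numbered knockout-labelled and WT libraries correlated at 0.0707 to 0.226, over 0.1 in 4 of 6 pairs. Each of the 12 libraries still correlated best with its own number among those of the other genotype. A mixed chimera holds cells of both genotypes, but the labels do not say whether same-numbered libraries came from the same mouse. The main fit was unpaired. For the comparisons of genotypes, the replicate block joined same-numbered libraries of the same time. For those of times it was the replicate number across both times, a link that the labels do not state. With these blocks, 0 of the 6 genes were called in the planned comparisons, and the type 1 count between times in WT cells was 0. Il17a kept its call averaged over genotypes with the number block (edgeR's quasi-likelihood test, adjusted p = 0.0472), which is not the pairing within a time. Of all 14431 genes, 332 were called with that block between times averaged over genotypes and 49 between times in WT cells. Tbx21, Il12rb2, Il17a and the 3 genes near zero rest on 0 to 71.5 estimated reads per library, and for Tbx21 and Il12rb2 the fitted intervals hold the spread between libraries as well as counting error.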
